A study of Mus musculus with 6 samples.

Results

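Replication-dependent histone genes encode the linker histone H1 and the core histones H2A, H2B, H3 and H4 that package newly made DNA. Their RNA was followed on microarrays in BCR-ABL+ B-ALL cells of the mouse, a B-cell precursor leukaemia driven by the BCR-ABL kinase. Cells received 312 nM DHA (dihydroartemisinin, an antimalarial) or the vehicle DMSO for 4 h, and each group had 3 arrays. The growth protocol covers lines with and without the T315I kinase mutation that lack Arf or p53, and does not tell which line was used. No label names separate cultures, so p-values cover only sample-to-sample spread, perhaps technical.

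The members were the probe sets whose only annotated symbol is that of a replication-dependent histone gene, 27 of the 41345 probe sets on the array, for 26 of the 22180 genes with a probe set of their own. They comprised 4 probe sets of H1, 8 of H2A, 8 of H2B, 0 of H3 and 7 of H4. A further 37 probe sets were annotated to several histone genes at once, because these genes are near-identical copies, and they include all 12 of H3. They lie outside the members and are described separately. H1f10, a linker histone made outside S phase, was not counted as a member. Members were selected by symbol, with no value used, but the family was proposed with the DHA and vehicle values of these arrays known, so the differences below are a description and no test is offered in their support.

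Most of these genes lie in clusters, on chromosome 13 (20 of the probe sets here) and chromosome 3 (6), and H2aw lies on chromosome 11. Their RNAs accumulate in S phase, have no introns and, unlike other messenger RNAs, usually end in a stem-loop bound by SLBP instead of a poly(A) tail. They are degraded quickly when DNA synthesis stops. The sources used here do not tell whether labelling primed on poly(A) tails.

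The promoters of 5 members are shown because these members had some of the largest differences in their class, in either direction. Each is the 200 bases before the gene's start in RefSeq (GRCm38.p6), 5′ to 3′ on the gene's strand. Capitals mark matches to 4 motifs known from histone promoters, on either strand. The TATA box was searched as exactly TATAAA, so near variants are neither marked nor counted. Such variants in the sequences below include tataag in H4c17 and H2aw and tatata in H1f2 and H2bc14. The CCAAT box was searched by its name. The octamer, bound by OCT factors and known from H2B genes, was searched as ATTTGCAT. The H1 box, known from H1 genes, was searched as AAACACA.
H1f2 (chr13:23738607-23738806, plus strand): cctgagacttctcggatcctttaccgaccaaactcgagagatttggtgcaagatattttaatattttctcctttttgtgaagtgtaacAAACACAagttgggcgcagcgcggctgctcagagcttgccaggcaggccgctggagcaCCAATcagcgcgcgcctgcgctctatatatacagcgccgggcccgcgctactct
H2aw (chr11:58954485-58954684, plus strand): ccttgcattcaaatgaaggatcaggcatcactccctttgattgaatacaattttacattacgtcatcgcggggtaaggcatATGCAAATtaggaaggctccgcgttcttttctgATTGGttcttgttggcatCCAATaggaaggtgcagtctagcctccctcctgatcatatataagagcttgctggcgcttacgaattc
H2bc14 (chr13:21721844-21722043, plus strand): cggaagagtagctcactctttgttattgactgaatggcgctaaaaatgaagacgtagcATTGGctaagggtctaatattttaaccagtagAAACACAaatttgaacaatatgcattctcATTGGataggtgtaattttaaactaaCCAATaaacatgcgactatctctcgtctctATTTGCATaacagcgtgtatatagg
H2ac21 (chr3:96219685-96219884, plus strand): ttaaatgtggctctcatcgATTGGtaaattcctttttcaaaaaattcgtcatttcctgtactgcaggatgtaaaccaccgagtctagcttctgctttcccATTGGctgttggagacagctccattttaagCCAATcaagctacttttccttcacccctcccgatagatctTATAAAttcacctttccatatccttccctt
H4c17 (chr13:21811546-21811745, plus strand): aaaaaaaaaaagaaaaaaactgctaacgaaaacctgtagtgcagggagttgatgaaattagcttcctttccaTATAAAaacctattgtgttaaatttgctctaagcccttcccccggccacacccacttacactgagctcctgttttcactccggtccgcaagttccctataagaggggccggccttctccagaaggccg
A window of 300 bases around the start, 250 before and 50 after it, was found for 24 of the 26 genes, and H2bc21 and H4c14 had no entry. CCAAT stood in 19 of the 24 windows (79.2%) against 37.4% of all 32851 windows in the table. By class it was in 4 of 4 for H1, 7 of 7 for H2A, 7 of 7 for H2B and 1 of 6 for H4. TATAAA stood in 16 of 24 (66.7%) against 13.6% of all windows, counted at any position and on either strand. Relative to the start, a match began at -33 in H1f1, -26 in H1f3, -28 in H1f5, -32 in H2ac1 and -30 in H2ac21. The only exact match began at -128 in H4c17 and at -137 in H4c9, with near variants not searched. In H2ac12, H2ac15 and H4c1 it began 15, 21 and 41 bases after the start. In H2bc12 and H2bc22 it lay on the opposite strand. The count is therefore not one of matches at a set distance from the start. The octamer stood in 5 of 7 H2B and 4 of 7 H2A windows and in 0 of the 4 H1 and 6 H4 windows, against 1.74% of all windows. AAACACA stood in 3 of 4 H1, 1 of 7 H2A, 2 of 7 H2B and 0 of 6 H4 windows, against 7.18% of all windows. In H2aw the octamer began 119 bases before the start on the opposite strand, and in H2bc14 it began 25 bases before the start. The windows of H2ac12 and H2bc12 share 277 bases on opposite strands, and those of H2ac1 and H2bc1 share 220, so these are not independent windows. A match is a description of letters and does not show binding.

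The deposited values are log2 intensities, and all levels and differences below are on that scale, DHA minus vehicle. Array medians lay between 5.25 and 5.31, and pairwise correlations between arrays between 0.9925 and 0.9947. The median difference of all probe sets was -0.00073. Of the B-cell precursor markers, 10 of 12 were tested and limma called 0, with 0 higher and 2 lower at an unadjusted p under 0.05. Of those, Cd24a had -0.16 and Igll1 -0.12, each lower on every DHA array, and the transcription factor Ebf1 had 0.13 and was higher on every DHA array. The signalling chain Cd79a lay between 12.64 and 12.75 and the surrogate light chain Igll1 between 12.89 and 13.06, while Vpreb1, its partner, was dim at 4.51 to 4.94. Of 24 measured markers of T, NK, myeloid, erythroid, megakaryocytic and stromal cells, 10 lay under the filter on dim genes, and limma called 0 of the 14 tested, with 0 at an unadjusted p under 0.05. Of the 14, the stromal marker Vim was bright at 12.05 to 12.35. Col1a1 lay at 6.23 to 6.44, and the rest were lower.

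With DHA, 22 of the 27 histone probe sets had a higher mean and 5 a lower one, where 49.6% of all probe sets had a higher mean. The 3 DHA values all lay above the 3 vehicle values in 14 members and all below in 2, where the corresponding shares of all probe sets were 5.58% and 5.94%. Among the 22 members at or above the 30th percentile of mean level, these counts were 12 and 1. The shares just given include dim probe sets, and no share at this level is given beside these counts. The median difference of the members was 0.19. The mean over the 27 probe sets was 7.91, 7.88 and 7.77 on the vehicle arrays and 8.18, 8.05 and 8.05 on the DHA arrays, which did not overlap. The difference of these means was 0.24, against an SD of 0.074 for vehicle and 0.078 for DHA (n = 3 each). With the median level over the probe sets of each array in place of the mean, the difference was 0.61. The middle-ranked probe set was not the same on each array, so that value compares different probe sets. More cells in S phase and more histone RNA per cell cannot be told apart in such bulk samples.

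No member passed the test across all probe sets. With limma on all 41345 probe sets, an adjusted p at or under 0.05 was reached by 0 of the 27 members and by 0.00484% of all probe sets, and the lowest adjusted p among members was 0.203, for H2aw. At an unadjusted p under 0.05 there were 15 members higher and 1 lower, against 3.53% and 3.84% of all probe sets. In a fit of 1 probe set per gene with dim genes left out, 0 of 22 members were called against 0.0902% of genes. The lowest adjusted p there were 0.0636 for H2aw, 0.0660 for H2bc14 and 0.0661 for H1f2.

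**Figure D1:**
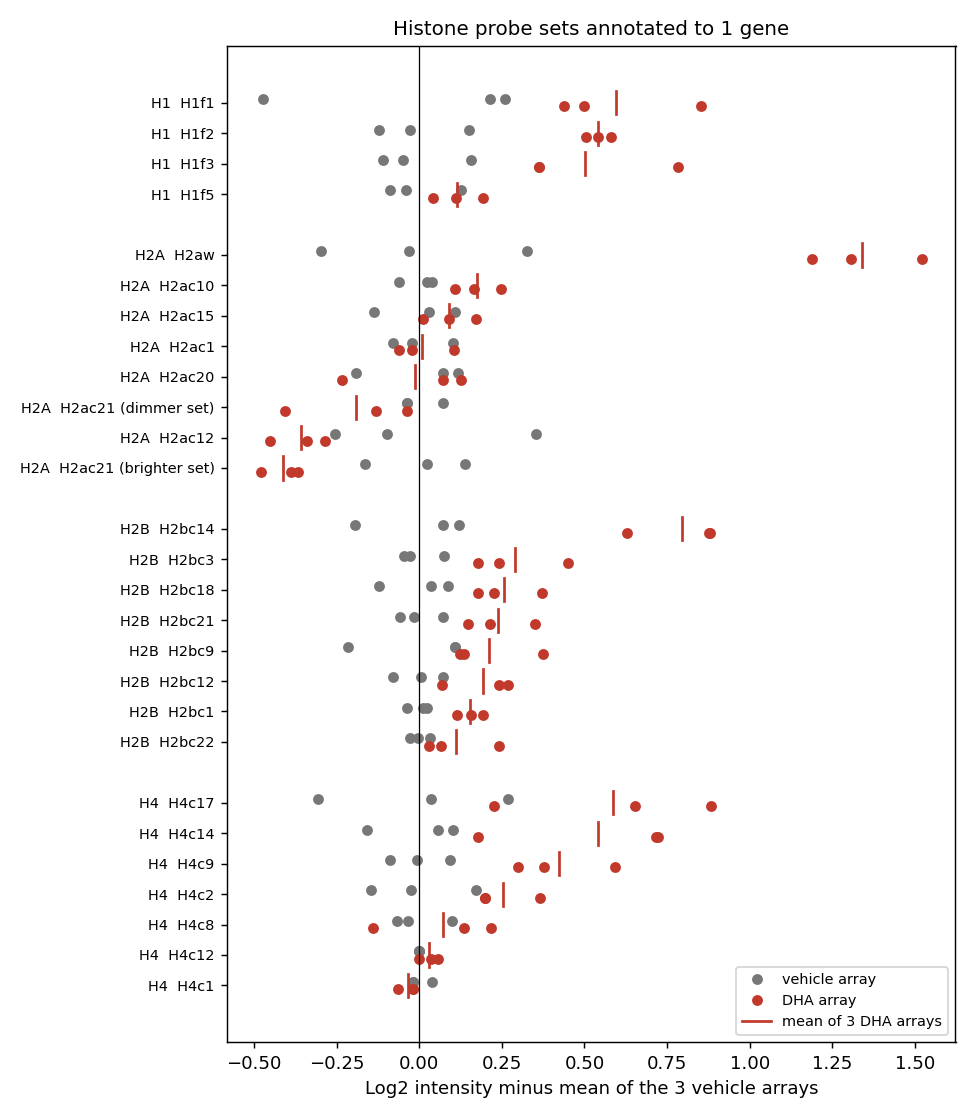
Each row is 1 probe set annotated to 1 histone gene, and the horizontal axis is log2 intensity minus the mean of the 3 vehicle arrays. Grey points are vehicle arrays, red points DHA arrays, and red bars the mean of the 3 DHA arrays, which reaches 1.34 for H2aw and -0.41 for the brighter H2ac21 probe set.

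Linker histone H1, which binds DNA between nucleosomes, was higher in 4 of 4 probe sets. The class mean was 9.35, 9.30 and 9.07 with vehicle and 9.83, 9.61 and 9.59 with DHA, a difference of 0.44 with the groups apart. H1f2 (formerly Hist1h1c) measured 9.97, 9.70 and 9.79 with vehicle and 10.36, 10.40 and 10.32 with DHA. Its DHA values lay close together and all above the vehicle values, and the difference was 0.54 (SE 0.080, 95% interval 0.35 to 0.74), or 1.46-fold. H1f3 measured 6.41, 6.62 and 6.35 with vehicle and 7.25, 6.82 and 6.82 with DHA, a difference of 0.50 (SE 0.14). H1f1 measured 9.42, 9.46 and 8.73 against 10.06, 9.64 and 9.70, a difference of 0.60 (SE 0.23). Its vehicle replicate 3 was low, and without it the difference was 0.36. H1f5 differed less, by 0.12 (SE 0.077), with overlapping values between 11.39 and 11.60 with vehicle and between 11.52 and 11.67 with DHA.

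H2B, which pairs with H2A in the nucleosome, was higher in 8 of 8 probe sets, by 0.11 to 0.79. The class mean was 7.88, 7.88 and 7.84 with vehicle and 8.22, 8.14 and 8.09 with DHA, a difference of 0.28. H2bc14 (Hist1h2bm) stood out among them. It measured 7.76, 7.49 and 7.81 with vehicle and 8.57, 8.31 and 8.56 with DHA, and the difference was 0.79 (SE 0.11, 95% interval 0.52 to 1.07), or 1.73-fold. The next largest were H2bc3 with 0.29 (SE 0.086), H2bc18 with 0.26 (SE 0.083) and H2bc21 with 0.24 (SE 0.073), each with the groups apart. H2bc21 (Hist2h2be) is known to yield polyadenylated RNA as well. H2bc12 measured 11.90, 11.81 and 11.97 against 12.13, 12.16 and 11.96, so that DHA replicate 3 fell within the vehicle values. The testis variant H2bc1 lay at 2.53 to 2.76 on all arrays, near the array minimum of 2.08 to 2.20, and its difference of 0.15 is that of a probe set with hardly any signal.

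H4, the most conserved core histone, was higher in 6 of 7 probe sets and apart in 3, of which H4c2 was a dim one. The class mean was 7.09, 7.18 and 7.06 with vehicle and 7.48, 7.29 and 7.36 with DHA, a difference of 0.27. H4c17 measured 9.80, 10.03 and 9.45 against 10.64, 10.41 and 9.99, a difference of 0.59 (SE 0.21), and DHA replicate 3 lay below vehicle replicate 2. H4c14 (Hist2h4) measured 6.27, 6.48 and 6.53 against 7.14, 6.60 and 7.15, a difference of 0.54 (SE 0.17), with DHA replicate 2 just above the vehicle arrays. H4c9 differed by 0.42 (SE 0.094), from 7.62 ± 0.090 to 8.04 ± 0.15 (SD, n = 3 each). H4c12 measured 13.12 on each vehicle array and 13.18, 13.16 and 13.12 with DHA, a difference of 0.031 (95% interval -0.080 to 0.14). The array maxima were 13.52 to 13.56, so this probe set lay on average 0.41 under the top of the scale. H4c1 differed by -0.035, with the same value on 4 of the 6 arrays. H4c2 and H4c8, at 2.86 to 3.64, were under the filter on dim probe sets.

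H2A members were evenly split, 4 higher and 4 lower, and 2 of the 4 lower probe sets lay under the filter on dim probe sets. H2aw (Hist3h2a), which lies away from the large clusters, had the largest difference of all members. It measured 6.35, 5.99 and 5.73 with vehicle and 7.55, 7.21 and 7.33 with DHA, 2.53-fold, and every DHA value lay above every vehicle value. Its difference was 1.34 (SE 0.17, 95% interval 0.91 to 1.77). H2ac10 differed by 0.17 (SE 0.061), from 12.49 ± 0.055 to 12.66 ± 0.071 (SD, n = 3 each), with the groups apart. H2ac21 (Hist2h2ab) went the other way. It measured 11.04, 10.92 and 10.74 with vehicle and 10.51, 10.53 and 10.42 with DHA, a difference of -0.41 (SE 0.089, 95% interval -0.63 to -0.19). A dimmer H2ac21 probe set, under the filter, had -0.19 with overlapping groups. The H2A mean went from 7.80 ± 0.14 to 7.88 ± 0.062 (SD, n = 3 each), a difference of 0.080 with overlapping arrays. This value depended on the probe sets and arrays used. It was -0.10 without H2aw and 0.017 without vehicle replicate 3. It was 0.20 among members at or above the filter, 0.28 with the probe sets of several genes added and 0.59 for the median level. The median level does not compare the same probe sets on each array.

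Neighbours on chromosome 3 had unlike values. H2ac21, H2ac20 and H2bc21 had differences of -0.41, -0.011 (95% interval -0.33 to 0.30) and 0.24. The brighter probe set 17400545, annotated to H2ac18, H2ac19 and H2ac20 together, had 0.19 with the groups apart. It does not separate these genes. H2ac12 and H2bc12, whose promoter windows overlap, had -0.36 and 0.19, but H2ac12 lay at 2.84 to 3.64 and under the filter. The probe sets that H2ac12 shares with other H2A genes were all higher with DHA. By chromosome, 18 of 20 probe sets on chromosome 13 were higher with a median of 0.18, and 3 of 6 on chromosome 3 with a median of 0.11.

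**Figure D2:**
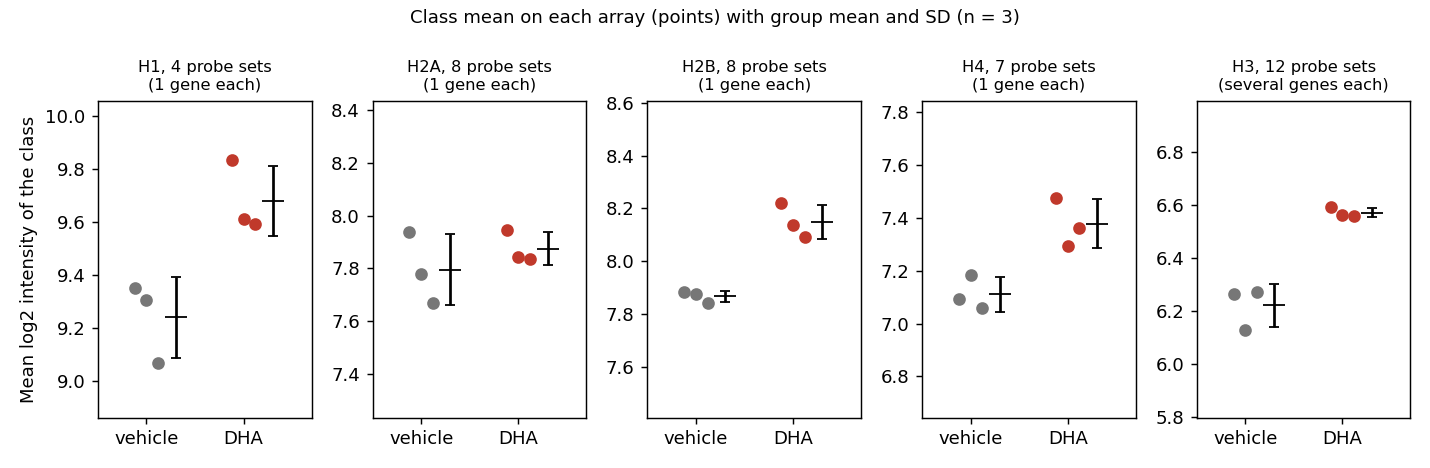
Mean log2 intensity of each histone class on each array, with the group mean and SD (n = 3) beside the points; every panel spans the same range of log2 units. The DHA arrays lie above the vehicle arrays for H1, H2B, H4 and the H3 probe sets, and overlap with them for H2A.

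DHA replicate 1 was the highest of the 6 arrays in 15 of the 27 members, and vehicle replicate 3 the lowest in 12. Over all probe sets those arrays were highest in 14.5% and lowest in 15.1%. Leaving either out gave a mean difference of 0.196 without DHA replicate 1 and 0.199 without vehicle replicate 3, where it was 0.24 with all arrays.

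The probe sets annotated to several histone genes use the same arrays and overlap the members in sequence, so they are no independent measurement. Among the 37 there were 3 pairs of rows with identical values, which left 34 distinct ones. Many of the 34 are annotated to the same set of genes as another, so they are not 34 separate observations. Of these 34, 34 were higher with DHA, 27 of them with the groups apart, and limma called 0 of them, with 25 at an unadjusted p under 0.05. Of all probe sets, 5.58% had every DHA value above every vehicle value. By limma, 0.00484% of all probe sets were called and 3.53% were higher at an unadjusted p under 0.05. The median difference was 0.35, and the lowest adjusted p was 0.116.

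H3, whose tail carries many of the regulatory modifications of chromatin, was measured only through such probe sets. All 12 were higher, by 0.052 to 0.83, and 9 had the groups apart. At or above the 30th percentile of mean level lay 10 of them. Under it were 17285825, at 2.83 to 2.99 and with the difference of 0.052, and 17291222, at 3.75 to 4.40. Both had overlapping groups, and both belong to the probe sets of 8 genes described below. Their mean was 6.26, 6.13 and 6.27 with vehicle and 6.59, 6.56 and 6.56 with DHA, a difference of 0.35. The 4 probe sets of H3c1, H3c8, H3c10 and H3c11 had a median of 0.22 and the 8 probe sets of 8 other H3 genes one of 0.35. The probe set with the smallest adjusted p, 17291183, measured 7.63, 7.64 and 7.56 with vehicle and 8.14, 8.12 and 8.12 with DHA, a difference of 0.52 (SE 0.048). Its 3 DHA values lay within a few hundredths of each other and well above the vehicle values.

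For the other classes, 9 of 9 H2A, 7 of 7 H2B and 5 of 5 H4 probe sets of several genes were higher, with medians of 0.41, 0.22 and 0.43. The remaining one joined H1f4 to 3 H2B genes and differed by 0.47. The largest difference was in probe set 17285746 of H2bc7, H2bc11, H2bc13 and H2bc15, which measured 6.84, 6.55 and 6.41 with vehicle and 8.31, 7.53 and 8.19 with DHA, 2.66-fold. Probe sets 17290997 and 17291190 of the same 4 genes had 0.058 and 0.15. The first of these lay on average 0.25 under the array maximum, nearer to the top of the scale than H4c12. Of H2A, all 9 had the groups apart, unlike the members of that class, of which 2 of 8 lay higher with the groups apart.

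**Figure D3:**
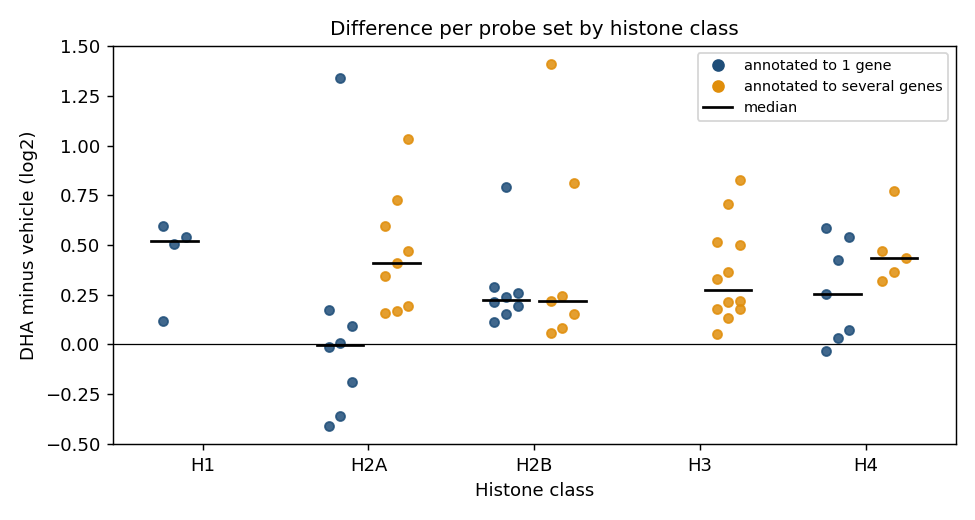
Each point is the log2 difference, DHA minus vehicle, of 1 probe set, by histone class, for those annotated to 1 gene (blue) and to several (orange, identical rows once); black bars are medians. The orange points all lie above 0, and the blue H2A points spread from -0.41 to 1.34.

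Genes that act with the replication-dependent histones were set beside them, in 5 lists of 98 genes of which 87 were tested. In the fit of 1 probe set per gene limma called 0 of the 87, with 6 higher and 3 lower at an unadjusted p under 0.05, and the median of all genes tested was 0.0027. Histone variants whose making is not confined to S phase had a median of -0.039, with 3 of 7 higher. Among these, the centromeric H3 variant Cenpa had -0.24 (adjusted p = 0.425), H2aj -0.14, macroH2A (Macroh2a1) -0.039 and H1f10 0.013. The limma fit called 0 of the 7, with 0 at an unadjusted p under 0.05.

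S phase genes had a median of 0.013, with 15 of 27 higher. The replication licensing factor Cdt1 measured 9.91, 9.85 and 9.90 with vehicle and 10.33, 10.20 and 10.29 with DHA (limma adjusted p = 0.0660). Thymidylate synthase, Tyms, had 0.24 (adjusted p = 0.141) and the checkpoint kinase Chek1 0.15 (adjusted p = 0.367). The mean of the list was 10.15, 10.24 and 10.18 with vehicle and 10.24, 10.17 and 10.25 with DHA, which overlapped. No shift in the share of cells in S phase was measured directly.

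Factors that process or degrade histone RNA had a median of 0.023, with 12 of 22 higher. Lsm10, a subunit of the particle that directs cutting of the histone RNA 3′ end, measured 8.78, 8.50 and 8.57 against 8.89, 8.91 and 8.91 (adjusted p = 0.224). The cap-binding subunit Ncbp2 had -0.21 (adjusted p = 0.297) and the polyadenylation factor subunit Fip1l1 0.14. Slbp, the stem-loop binding protein, had -0.030 (95% interval -0.15 to 0.090).

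Factors of histone transcription and the histone locus body, the nuclear site where these genes are transcribed, had a median of -0.0080, with 6 of 12 higher. Casp8ap2, a component of that body also known as FLASH, had 0.24 and lay higher on every DHA array (adjusted p = 0.336), whereas the coilin gene Coil had -0.18. Hinfp, a transcription factor of H4 genes, had 0.30, the largest positive difference of the list, with the groups apart (adjusted p = 0.348). Ldha, a glycolytic enzyme reported in a coactivator complex of H2B transcription, had -0.50 (adjusted p = 0.214). Npat, the cyclin E-CDK2 substrate that activates these genes, had 0.049 (95% interval -0.10 to 0.20). Histone chaperones and acetyltransferases had a median of 0.012 with 10 of 19 higher, and their smallest p were those of Hira (-0.11), Nasp (-0.16) and Hat1 (0.099). Slbp, Npat, Hinfp, H1f10, Cd79a and Vpreb1 were named after seeing their values, outside the rule for named genes. So were the members H2ac12, H2ac20, H2bc1, H2bc9, H4c2 and H4c8, the dimmer H2ac21 probe set and the probe sets given by number.

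**Figure D4:**
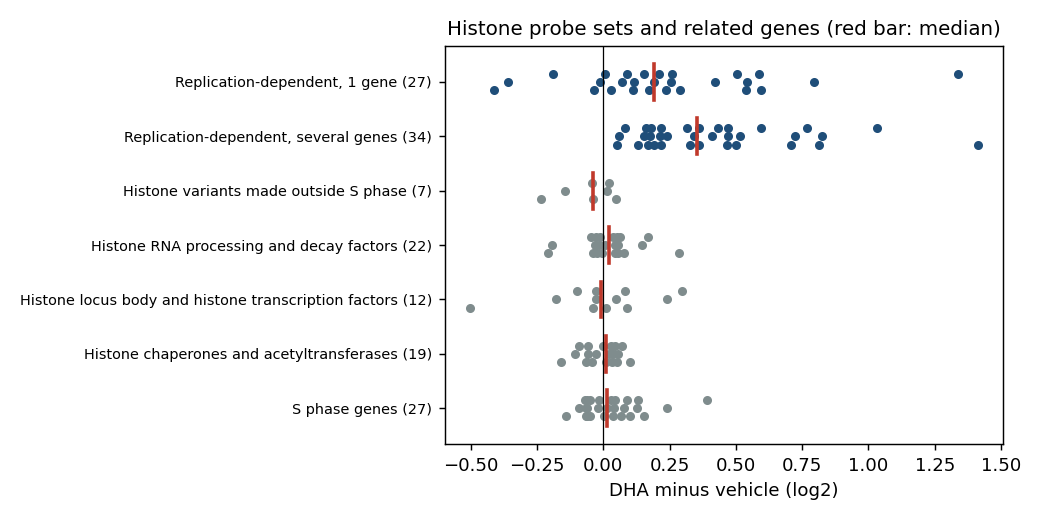
Each point is the log2 difference, DHA minus vehicle, of 1 histone probe set (blue) or 1 tested gene of a related list (grey), with the number of points in brackets and red bars for medians. The medians are 0.19 and 0.35 for the histone probe sets and between -0.039 and 0.023 for the related lists.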

How the data were processed

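RNA of 3 vehicle and 3 DHA samples was measured on arrays. The deposited values are log2 intensities per probe set, made by the authors with RMA and Partek 6.6, as the submitters' processing notes list them without settings. RMA can compress differences of dim probe sets. Symbols came from the platform annotation (1 symbol for 23521 probe sets, several for 1814, not named for 16010), and RefSeq (GRCm38.p6) gave the same symbol for all 27 members. No filter was applied to members, of which 22 lay at or above the 30th percentile of mean level (4.27).

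DHA was compared with vehicle with limma 3.58.1 in R 4.3.3 (two-sided, Benjamini-Hochberg), on all 41345 probe sets. Related genes were tested with the brightest probe set per gene, for the 15526 of 22180 genes at or above the 30th percentile (4.52). Class values are means over probe sets per array, with no test. SE and 95% intervals are limma's, unadjusted. The members and lists were chosen with earlier results of these data known. Probe sets were named by class (brightest, largest rise, largest fall), as the 10 with the smallest p, and, in related lists, 3 genes with the smallest p; exceptions are named in the text. The fit was run on simulated data with independent noise and shifts larger than nearly all member differences. Recovery of differences as small as most of those here was therefore not tested. Replicate numbers follow accession order and only name samples. Scanner files were not used here, and the number of arrays limits the precision.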

Additional observations from a re-analysis of the deposited data

How the results depend on the processing

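No paired analysis was possible because the titles give the groups no common numbering beyond 1 number, carried by vehicle replicate 3 and by DHA replicate 2. On leaving out 1 array, the mean difference ranged from 0.196 to 0.270 for all members, 0.35 to 0.49 for H1, 0.017 to 0.15 for H2A, 0.25 to 0.31 for H2B and 0.22 to 0.31 for H4. Between 4 and 6 members were lower with DHA, 17 to 20 had groups that did not overlap and limma called 0. Leaving out an array can only keep or raise the count of groups that do not overlap, which was 16 with all arrays. The share over all probe sets was not counted for these smaller groups. No member was called under any alternative run, among them a cut of 0.1 on the adjusted p of the fit on all probe sets. That cut was not among the runs for the limma fit of 1 probe set per gene. There H2aw (0.0636), H2bc14 (0.0660) and H1f2 (0.0661) lay under 0.1. Adding the probe sets of several histone genes of the rule gave 0.33 for all, 0.28 for H2A and 0.38 for H2B. Adding every such probe set, an alternative chosen after seeing the data, gave 0.34 for all, 0.28 for H2A, 0.35 for H2B and 0.35 for H4. Among members at or above the 30th percentile the H2A difference was 0.20 and 3 were lower. Taking the median level over probe sets per array gave 0.61 for all, 0.59 for H2A, 0.503 for H2B and 0.48 for H4. This is the level at the middle of the ranked probe sets, which need not be the same probe set on each array. Over all members it was H2bc14 on vehicle replicate 1 (7.76) and H2bc9 on DHA replicate 1 (8.56). The median of the differences per probe set was 0.19 for all members. Without H2aw, also added after seeing the data, the H2A difference reversed to -0.10. Median centring and quantile normalization moved no class mean by more than 1 SD. A term for the title number, which 1 array of each group carries, cannot move these differences. The 17 member probe sets named by the rule kept their sign in each alternative run. H2ac20 and H4c8, named outside it, did not on leaving out 1 array, with ranges of -0.11 to 0.099 and -0.0025 to 0.18.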
